A study of Equus caballus with 20 samples.

Results

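Extracellular vesicles from the fluid of postdeviation follicles were compared with those from deviation follicles, the step at which the chosen follicle of a wave has just outgrown the size of selection. A miRNA entered the comparison if it was above 0 in at least 4 of the 8 libraries of these stages, which kept 204 of the 686 miRNA names in the table. The 8 libraries were 4 of postdeviation follicles (26 to 29 mm in diameter) and 4 of deviation follicles (22 to 25 mm). The series also holds 4 libraries each from predeviation (18 to 20 mm), preovulatory (30 to 35 mm) and impending ovulation follicles, 20 libraries in all, and these enter below only as neighbouring stages. All groups came from mares of the same breed, 8 to 14 years old, with a normal reproductive tract, in which every follicle of 6 mm or more had been ablated on days 10 to 11 after ovulation to start a new wave. Follicles were judged healthy and growing by ultrasound, and their fluid was drawn through the vagina in the living mare. The study used 19 mares for 20 libraries and no label says which mare a library came from, so at least 1 mare gave more than 1 library, and the p-values speak of the spread among these libraries.

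In mares, as in women, a group of follicles starts to grow together and the largest soon keeps its pace while the others slow down and regress. That parting is called deviation, and after it the dominant follicle gains receptors for luteinizing hormone and makes rising amounts of oestradiol. Granulosa cells line the fluid-filled cavity, theca cells and blood vessels lie outside the wall, and the fluid itself is in part a filtrate of blood plasma. Vesicles in the fluid are membrane-bound particles shed by cells, and they carry miRNAs, short RNAs that pair through their seed bases with messenger RNAs and lower their output. The comparison addresses which vesicle miRNAs differ once a follicle has passed selection. Because vesicles were sequenced in bulk, fewer vesicles from a cell type and less of a miRNA per vesicle cannot be told apart.

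The 8 libraries held between 55118 and 89957 recovered reads at postdeviation and between 71805 and 94917 at deviation. Values are scaled reads, in which a single read was worth between 10.6 and 17.9, so values in that range rest on 1 read. The number of miRNAs above 0 was 202 ± 10.1 at postdeviation and 215 ± 13.0 at deviation (SD, n = 4 each; exact two-sided permutation test, p = 0.2, 0.25 adjusted over 5 library measures, where 0.0286 is the smallest p possible). The 10 most abundant miRNAs held 69.9 ± 1.92% of the reads at postdeviation and 73.8 ± 1.76% at deviation (SD, n = 4 each; exact permutation p = 0.0571, adjusted 0.25). Deviation library 2 stood apart from the other deviation libraries for several miRNAs, with 52283 scaled reads of miR-100 against 4746 to 6306 in the rest. Pearson correlations of log2 values across miRNAs, which are not independent replicates, ran from 0.784 to 0.858 within postdeviation, from 0.814 to 0.90 within deviation and from 0.792 to 0.863 between the stages. A postdeviation library was thus about as like a deviation library as it was like another of its own stage.

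No miRNA differed between postdeviation and deviation past the threshold: 0 of 204 (0%) had an adjusted p under 0.05 in limma's moderated test with Benjamini-Hochberg adjustment, and the smallest adjusted p was 0.332. At an unadjusted p under 0.05 stood 13 miRNAs (6.37%), 6 of them higher at postdeviation (2.94%) and 7 lower (3.43%). The count was also 0 with edgeR's quasi-likelihood test, with 10 at an unadjusted p under 0.05. DESeq2 called 3, namely miR-204b and miR-483, which were higher, and miR-34c, which was lower. Giving less weight to the more variable libraries called miR-204b and miR-34c, and leaving out postdeviation library 2 called miR-204b. All other miRNAs described here, and these 3 in the fit reported, are therefore given by their values and not as changes. The fit reported pooled the spread within every stage of the series. Its intervals are therefore not those of the postdeviation and deviation libraries alone, whose width is not given. That pooled spread limits what the fit can show. The 95% intervals of the log2 differences had a median half-width of 1.86, and for 181 of 204 miRNAs the interval reached beyond a 2-fold difference. Its width followed abundance, with a median half-width of 0.88 in the most abundant 68 miRNAs, 1.63 in the middle 68 and 3.49 in the scarcest 68.

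On the deposited scale 76 miRNAs were fitted higher and 128 lower at postdeviation, with a median log2 difference of -0.18. That balance moved with the scaling: with every library brought to the same total, 105 were fitted higher and 99 lower, and the median was 0.03. The summed scaled reads were 929012 ± 78529 at postdeviation and 1074461 ± 99756 at deviation (SD, n = 4 each; exact permutation p = 0.114, adjusted 0.25). Log2 differences below are on the deposited scale and would be more positive with equal totals, by about the shift of that median. The fitted sign is that of log2 values, so for a scarce miRNA a single library at 0 can set it against the plain means. miR-19b and miR-142-3p were fitted higher with lower means at postdeviation. miR-199b-5p and both arms of miR-369 were fitted lower with higher means there.

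**Figure D1:**
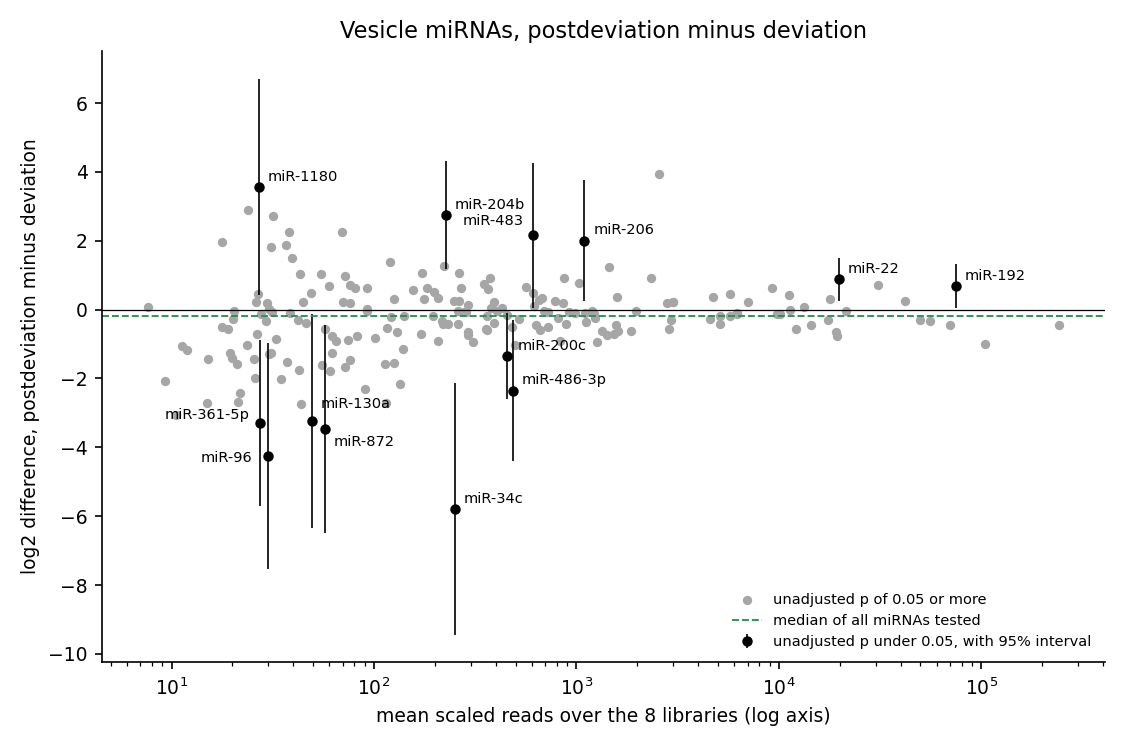
Log2 difference of each of the 204 miRNAs, postdeviation minus deviation, against its mean scaled reads over the 8 libraries (log axis). Black points with 95% intervals are the 13 miRNAs with an unadjusted p under 0.05, none of which passed adjustment, and the dashed line is the median of -0.18; the scatter is widest on the left, among scarce miRNAs.

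For 6 of the 10 most abundant miRNAs the stages overlapped, and none of the 10 passed the test. miR-148a, a miRNA also abundant in milk and liver, led all 8 libraries with 185728, 179431, 292428 and 167125 scaled reads at postdeviation and 242743, 361034, 242927 and 265173 at deviation. Its stages overlapped through postdeviation library 3, and the log2 difference was -0.45 ± 0.33 (SE; interval -1.14 to 0.24; limma adjusted p = 0.877). miR-21, which luteinizing hormone induces in mouse granulosa cells and which protects them from apoptosis, had 24882, 88832, 27966 and 147878 scaled reads at postdeviation and 100644, 36144, 227935 and 178299 at deviation. Libraries of the same stage differed up to several-fold, both stages spanned low and high libraries, and the log2 difference was -1.0 with an interval of -2.57 to 0.56. miR-24, made from a hairpin cluster shared with miR-23 and miR-27, lay at 21076 ± 2245 at postdeviation and 21927 ± 5246 at deviation (SD, n = 4 each). Its log2 difference of -0.03 had one of the narrower intervals, -0.52 to 0.46, and its sign turned under several scalings. Log2 differences were -0.46 for miR-99a, -0.34 for miR-10b and -0.31 for miR-10a, each with an interval that included 0; the sign of miR-99a turned under quantile normalization.

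In 9 miRNAs (4.41%) all 4 libraries of one stage lay beyond all 4 of the other, 8 of them higher (3.92%) and 1 lower (0.49%) at postdeviation, and none of these passed the test. They are described by what each is known for.

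miR-192 and miR-215 are close relatives that liver, gut and kidney make in quantity and that the tumour suppressor p53 induces. miR-192 had 94130, 99665, 94720 and 82147 scaled reads at postdeviation, against 64423, 53816, 49941 and 62723 at deviation. Every postdeviation library was above every deviation library, and the log2 difference was 0.69 ± 0.31 (SE; interval 0.05 to 1.33; adjusted p = 0.673). miR-215 had 39589, 35979, 43103 and 34479 at postdeviation, against 29963, 24982, 16379 and 22989 at deviation, with a log2 difference of 0.73 (interval -0.0037 to 1.46; adjusted p = 0.697). How the counting assigned reads that match both relatives was not stated, so their agreement is not that of separate measurements.

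miR-22, which is expressed in many tissues, had 18219, 36582, 25117 and 23296 scaled reads at postdeviation, against 16710, 9996, 14062 and 14635 at deviation. Postdeviation library 1 came close to deviation library 1, but the stages did not overlap, and the log2 difference was 0.88 ± 0.31 (SE; interval 0.24 to 1.51; adjusted p = 0.498). miR-483 lies within the gene of insulin-like growth factor 2 in human and mouse. It stood at 1007, 899, 1515 and 430 at postdeviation, against 421, 42.2, 347 and 237 at deviation. Less than the worth of a single read separated postdeviation library 4 from deviation library 1, and the log2 difference was 2.16 ± 1.02 (SE; interval 0.04 to 4.27; adjusted p = 0.697, and 0.0312 with DESeq2). With equal totals its stages overlapped.

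miR-92a, of the oncogenic miR-17-92 cluster, was even between postdeviation libraries, at 6778, 6506, 6736 and 6487, against 4378, 4372, 4918 and 5593 at deviation. The gap between the stages was wider than the spread among postdeviation libraries, and the log2 difference was 0.47 (interval -0.04 to 0.98; adjusted p = 0.762). miR-423-5p had 44971, 43586, 44997 and 47937 at postdeviation, against 34867, 41810, 40861 and 36440 at deviation, a log2 difference of 0.24. miR-181b, of a family known from lymphocyte development, had 403, 201, 428 and 233 at postdeviation, against 118, 84.4, 142 and 166 at deviation, a log2 difference of 1.27 with an interval of -0.21 to 2.75. miR-433, from an imprinted miRNA cluster, stood between 72.0 and 115 at postdeviation and between 42.2 and 71.1 at deviation, so its highest deviation library and its lowest postdeviation library differed by less than 1 read. let-7c, of the family that promotes differentiation, was the lower one, with 12203, 12367, 10903 and 12150 at postdeviation, against 17736, 22578, 14156 and 12443 at deviation. Deviation library 4 lay just above postdeviation library 2, and with equal totals the stages of let-7c overlapped.

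**Figure D2:**
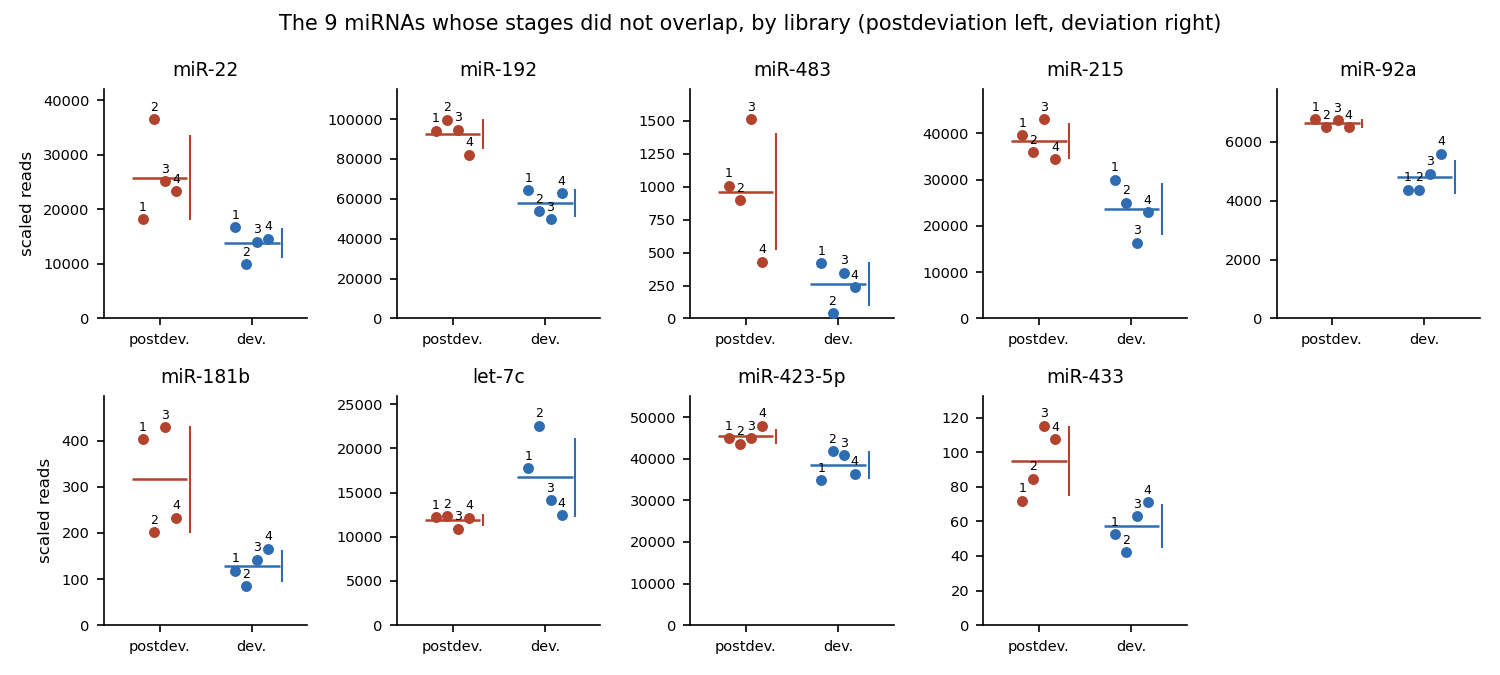
Scaled reads in each library (points, numbered by replicate) of the 9 miRNAs whose stages did not overlap, with the mean of 4 libraries (line) and its SD (bar beside it), postdeviation left and deviation right. miR-92a sits between 6487 and 6778 at postdeviation and between 4372 and 5593 at deviation, while miR-433 and let-7c are separated only narrowly.

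Scaling bears on this count. Equal totals left 7 miRNAs without overlap, all higher at postdeviation, since miR-483 and let-7c dropped out. Leaving out any single library can only keep or add such miRNAs, and the count then ran from 10 to 18, with the highest without postdeviation library 2.

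The smallest p belonged to miR-204b, of a family known from pigmented and lens epithelia of the eye. It had 576, 74.1, 626 and 323 scaled reads at postdeviation, against 52.6, 28.1, 110 and 23.7 at deviation, or 103 recovered reads at postdeviation and 15 at deviation. Postdeviation library 2 fell among the deviation libraries while the other 3 were above all of them, and the log2 difference was 2.75 ± 0.76 (SE; interval 1.17 to 4.33; adjusted p = 0.332). The adjusted p was 0.00331 with DESeq2, 0.0286 with library weights, 0.0288 without postdeviation library 2, and up to 0.929 under the other alternatives. miR-206, a miRNA of skeletal muscle, had 2490, 254, 3640 and 842 at postdeviation, against 684, 380, 300 and 95 at deviation, a log2 difference of 2.01 (interval 0.26 to 3.75; adjusted p = 0.639). miR-9a, named for a miRNA of the nervous system, ranged more widely still, with 9383, 21.2, 9750 and 215 at postdeviation, against 0, 942, 142 and 59.3 at deviation (log2 difference 3.93, interval -0.37 to 8.23). Postdeviation libraries 1 and 3 were the highest for all 3 of these miRNAs, and postdeviation library 2 was the lowest of its stage. Postdeviation library 4 was also above every deviation library for miR-204b and miR-206, but not for miR-9a.

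miR-34c had the largest fitted difference downwards. A relative of miR-34a, it is abundant in testis and ciliated epithelium. Scaled reads were 0, 10.6, 0 and 17.9 at postdeviation, against 13.1, 183, 977 and 806 at deviation, which are 2 reads at postdeviation and 144 at deviation. Adjusted by the deposited scaling of the libraries, not by their read totals, the reads were 68.5-fold lower. The counting interval was 18.6- to 571-fold and leaves out the spread between libraries. Deviation library 1 lay within the postdeviation range. The fitted log2 difference was -5.79 ± 1.75 (SE; interval -9.44 to -2.14; adjusted p = 0.349, 0.00331 with DESeq2 and 0.0286 with library weights, and up to 0.929 under the other alternatives), and its size depends on the added constant. Both arms of miR-34b, which shares a precursor transcript with miR-34c in human and mouse, were above 0 in 0 postdeviation libraries and 2 deviation libraries, too few to enter the comparison. miR-96, which regulates hair cell development as part of the miR-183 cluster, had 14.4, 0, 0 and 0 at postdeviation, against 13.1, 14.1, 126 and 71.1 at deviation, or 1 read at postdeviation and 16 at deviation. Its cluster partner miR-183 had 1410, 476, 1005 and 735 at postdeviation and 368, 1139, 993 and 723 at deviation, with no such gap, and its log2 difference of 0.18 changed sign without postdeviation library 1 or without deviation library 1.

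Other scarce miRNAs among the 13 rested on few reads. miR-361-5p was at 14.4, 21.2, 0 and 0 at postdeviation, against 52.6, 56.2, 15.8 and 59.3 at deviation, or 3 reads at postdeviation and 14 at deviation. Adjusted by the deposited scaling, its reads were 4.44-fold lower (counting interval 1.24 to 24.1). miR-872 was above 0 in 2 postdeviation libraries (10 reads) and 4 deviation libraries (25 reads). miR-130a was above 0 in the same numbers of libraries, with 7 reads at postdeviation and 21 at deviation. miR-1180 went the other way, at 57.6, 10.6, 49.4 and 35.8 at postdeviation, against 63.1 in deviation library 3 and 0 in the rest, or 10 reads at postdeviation and 4 at deviation (2.63-fold higher, counting interval 0.76 to 11.5). Among the 20 smallest p but not under 0.05 were also miR-28-5p, at 43.2, 0, 0 and 89.6 at postdeviation and 39.4, 42.2, 63.1 and 71.1 at deviation, and miR-15a, with 1 read at postdeviation and 5 at deviation. Recovered reads averaged 65021 ± 16682 at postdeviation and 79059 ± 10665 at deviation (SD, n = 4 each; exact permutation p = 0.2), and the part of depth in these low values was not tested. Thinned to 55118 reads, libraries held 200 miRNAs on average at postdeviation and 204 at deviation (exact permutation p = 0.629).

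miR-200c and miR-486-3p were the lower ones of moderate level. miR-200c, which keeps cells epithelial by repressing the ZEB factors, had 130, 159, 296 and 502 at postdeviation, against 355, 548, 772 and 889 at deviation. Postdeviation library 4 reached above deviation library 1, and the log2 difference was -1.36 ± 0.60 (SE; interval -2.61 to -0.11; adjusted p = 0.673). miR-486-3p, an arm of an erythroid hairpin, had 115, 339, 428 and 17.9 at postdeviation, against 723, 1307, 426 and 533 at deviation, with a log2 difference of -2.35 (interval -4.41 to -0.29; adjusted p = 0.639). The other arm, miR-486-5p, stood at 8634, 21719, 13473 and 14874 at postdeviation and 26098, 28679, 21912 and 19375 at deviation, a log2 difference of -0.77.

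**Figure D3:**
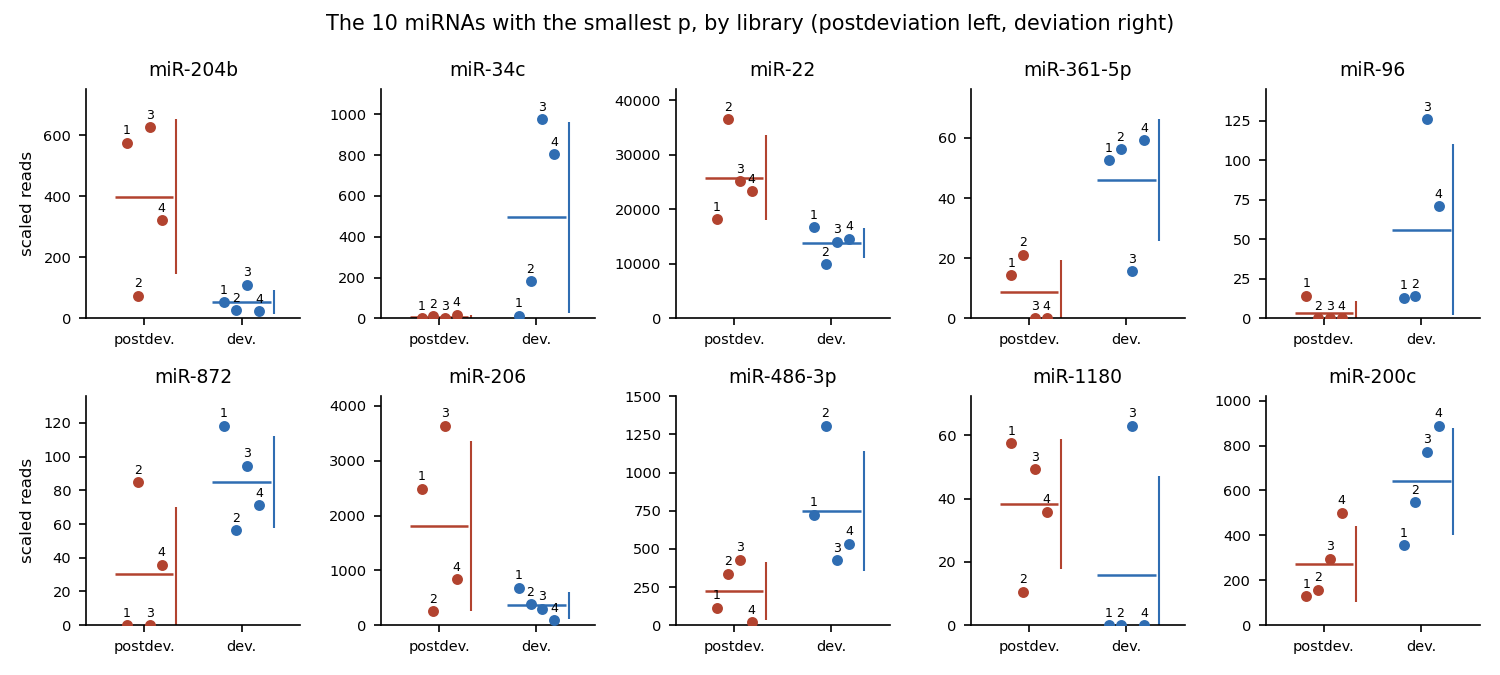
Scaled reads in each library (points, numbered by replicate) of the 10 miRNAs with the smallest p, with the mean of 4 libraries (line) and its SD (bar beside it, ending at 0 where it would go below), postdeviation left and deviation right. Postdeviation libraries 1 and 3 are the highest for miR-204b and miR-206, and library 4 is also above every deviation library for both. The miR-34c values at postdeviation are 0 to 17.9.

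Tissue markers were read as lists, since vesicles in follicular fluid can come from the follicle wall or from blood, and 0 members of any list passed the test. Of the 4 liver and plasma miRNAs tested, 3 were fitted higher and 1 lower at postdeviation, with a median log2 difference of 0.66, where that of all 204 was -0.18. Their summed scaled reads were 145793, 143145, 144773 and 137861 at postdeviation and 101197, 89777, 71049 and 93546 at deviation, a share of 14.0 to 17.9% of the reads at postdeviation and 6.05 to 10.7% at deviation. The sums did not overlap, and most of them was miR-192 and miR-215. miR-122, the liver's own miRNA, had 11700, 6940, 6423 and 20877 at postdeviation and 6547, 10431, 4020 and 7027 at deviation, so its stages overlapped (log2 difference 0.62), and both arms of miR-885, another liver miRNA, were listed at 0 in all 8 libraries. miR-194, which shares hairpin clusters with miR-192 and miR-215, was low and not higher, at 374, 561, 527 and 358 at postdeviation, against 263, 548, 709 and 806 at deviation.

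All 5 red blood cell miRNAs tested were fitted lower, with a median of -0.77, beside 128 of the 204 miRNAs fitted lower overall. Their sums ran from 9268 to 23517 at postdeviation and from 20939 to 30563 at deviation, most of it miR-486-5p. miR-451, the erythroid miRNA processed without Dicer, had 331, 1312, 428 and 1057 at postdeviation and 1196, 408, 914 and 841 at deviation, with no separation, and its fitted sign turned without postdeviation library 1. miR-144, its cluster partner, was above 0 in 0 postdeviation libraries and 1 deviation library. Of 9 leukocyte miRNAs 2 were fitted higher and 7 lower (median -0.40), and their sums were 5037 to 7096 at postdeviation and 7312 to 9025 at deviation. Those sums did not overlap, but as a share of the reads they did, at 0.576 to 0.718% at postdeviation and 0.647 to 0.856% at deviation. miR-146b-5p, which NF-kappa-B signalling induces with its relative miR-146a, had 273, 1111, 1301 and 1057 at postdeviation and 2393, 1476, 1293 and 1209 at deviation (log2 difference -0.93, interval -1.87 to 0.01). Endothelial and platelet miRNAs had 2 members fitted higher and 4 lower (median -0.50), with miR-126-3p, the endothelial miRNA, between 1194 and 3798 at postdeviation and between 2358 and 4365 at deviation. The part of blood in the follicle values was not tested.

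Muscle and stroma miRNAs split evenly, 4 fitted higher and 4 lower, with a median of -0.03. miR-143, of smooth muscle and fibroblasts, had 6231, 16070, 17508 and 23476 at postdeviation and 19485, 24546, 19658 and 26284 at deviation. The heart miRNAs miR-208a and miR-208b were listed at 0 in all 8 libraries, as was miR-499-3p. miR-499-5p of the same list was above 0 in all 8, between 10.6 and 125 at postdeviation and between 31.5 and 237 at deviation. Of 4 neural and endocrine miRNAs 3 were fitted higher and 1 lower (median 0.28). Their sums overlapped, at 24723 to 34696 at postdeviation and 12709 to 26862 at deviation, but as a share of the reads they did not, at 2.60% or more at postdeviation and 2.29% or less at deviation. miR-128, the most abundant of them, ran from 16470 to 24173 at postdeviation and from 10825 to 22275 at deviation, a log2 difference of 0.32. Of the list's members that missed the comparison, miR-124 was above 0 in 1 library of each stage. miR-153 was above 0 in 1 postdeviation and 0 deviation libraries, and miR-129a-3p in 0 and 1. miR-129b-3p, miR-138 and miR-219-5p were listed at 0 in all 8 libraries.

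Of the miRNAs tied to granulosa cells and gonadotropins, miR-21 (above) and miR-378 were abundant and miR-224 and miR-132 scarce. miR-378, which represses aromatase in pig granulosa cells, had 10980, 9161, 8861 and 9408 at postdeviation and 9190, 13707, 11949 and 7738 at deviation, a log2 difference of -0.12 that changed sign with equal totals. miR-224, which transforming growth factor beta induces in mouse granulosa cells, lay between 14.4 and 108 at postdeviation and, apart from deviation library 2 with 183, between 26.3 and 35.6 at deviation. Its log2 difference was -0.56, and 0.07 without deviation library 2. miR-132, induced by luteinizing hormone in mouse granulosa cells, rested on 2 reads at postdeviation and 10 at deviation. miR-383, another granulosa miRNA in mouse, was above 0 in 3 postdeviation and 0 deviation libraries and so missed the comparison by 1 library. Other members of its list that missed it went the other way. miR-514 was above 0 in 0 postdeviation and 2 deviation libraries, and miR-508-3p in 0 and 1. The 2 members of that list in the comparison, miR-378 and miR-224, had a median log2 difference of -0.34.

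Among families and clusters, the miR-17-92 cluster and its paralogs had 7 members fitted higher and 2 lower at postdeviation, with a median of 0.50. Of all 204 miRNAs, 76 were fitted higher. miR-19b counts as higher (log2 difference 0.98) though it averaged 62.4 at postdeviation and 81.4 at deviation, where library 3 was at 0. Beside miR-92a, miR-20a had 1065, 159, 214 and 340 at postdeviation and 78.9, 127, 489 and 308 at deviation, with a wide overlap. miR-25 of the paralogous cluster was lower, between 2975 and 5756 at postdeviation and between 4479 and 9602 at deviation. The imprinted DLK1-DIO3 cluster, which in mammals is expressed from the maternal chromosome, had 27 listed members in the comparison, 17 fitted higher and 10 lower, with a median of 0.22. Its most abundant member, miR-409-3p, had 9512, 14017, 22548 and 6469 at postdeviation and 7534, 6270, 12154 and 10748 at deviation, so the highest library and the second lowest were postdeviation ones. The miR-200 family had 1 member higher and 4 lower (median -0.65). The higher one was miR-429, with a log2 difference of 1.37 (interval -1.29 to 4.04). The lower ones included miR-200a (log2 difference -0.61) and miR-200b (-0.75), while miR-141 changed sign between alternatives. The miR-99, miR-100, miR-125 and miR-10 group had 2 higher and 9 lower (median -0.46), and its most uneven member was miR-100, with a log2 difference of -0.55, and 0.27 without deviation library 2. The let-7 family had 2 higher and 5 lower (median -0.14), and the miR-30 family 0 higher and 4 lower (median -0.10), of which miR-30d changed sign with equal totals. miR-221 and miR-222, a pair that represses the cell cycle inhibitor p27, were both fitted lower, with log2 differences of -0.37 and -0.91. miR-222 had 302, 688, 511 and 878 at postdeviation, against 1210, 815, 1009 and 1185 at deviation, and only postdeviation library 4 overlapped the deviation range. Medians of the remaining lists were 0.57 for miR-181 (2 members), -0.04 for miR-23, miR-27 and miR-24 (5), -0.14 for the miR-183 cluster (3), -0.20 for miR-26 and miR-148 (4), -0.41 for miR-15, miR-16, miR-103 and miR-107 (5), -0.75 for miR-29 (2), -0.91 for the miR-424 cluster (4), -1.02 for stratified epithelium (2), -1.85 for luteinizing hormone responsive miRNAs (2) and -3.17 for miR-34 and miR-449 (2).

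**Figure D4:**
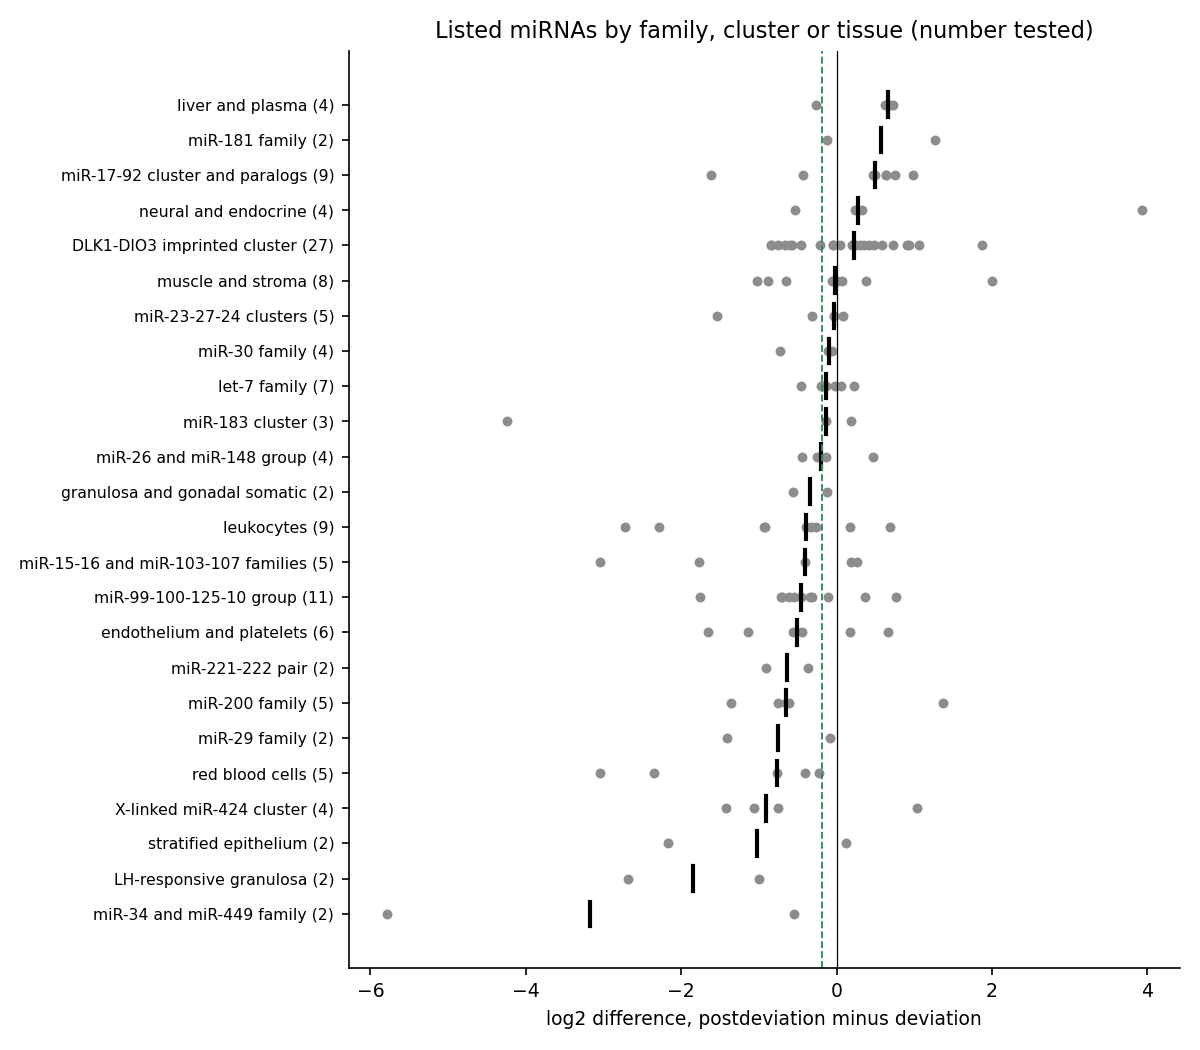
Log2 difference, postdeviation minus deviation, of the members of each list (grey points), with the list's median (black bar) and the median of all 204 miRNAs (dashed line, -0.18); the number of members tested is in parentheses. Liver and plasma stands highest with a median of 0.66 from 4 miRNAs. The lowest medians, -3.17 for miR-34 and miR-449, -1.85 for luteinizing hormone responsive miRNAs and -1.02 for stratified epithelium, each come from 2 miRNAs.

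Predeviation gives the size of the step on a longer interval. Between postdeviation and predeviation 14 of the 204 miRNAs (6.86%) passed limma's adjusted p of 0.05, 10 of them higher (4.90%) and 4 lower (1.96%). Detection at predeviation played no part in keeping the 204. A miRNA near 0 at predeviation could enter, while one lost after predeviation could not, so the split is not read as a balance. Between postdeviation and deviation 0 passed, and that the pair with predeviation gave more calls was not itself tested. These comparisons share the postdeviation libraries, so the levels are set side by side as a description. miR-22 averaged 6838 ± 956 at predeviation, 13851 ± 2811 at deviation and 25804 ± 7756 at postdeviation (SD, n = 4 each), and rose by a log2 difference of 1.88 ± 0.31 from the first to the last (SE; limma adjusted p = 0.000794). miR-192 averaged 29890 ± 16911 at predeviation, 57726 ± 6969 at deviation and 92666 ± 7439 at postdeviation, and miR-215 averaged 12011 ± 6413, 23578 ± 5625 and 38287 ± 3861 in the same order. miR-483 averaged 42.5 ± 47.5, 262 ± 165 and 963 ± 445 in that order.

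miR-323-3p, of the DLK1-DIO3 cluster, averaged 248 ± 172 at predeviation, 646 ± 373 at deviation and 1087 ± 303 at postdeviation, and miR-615-3p, which lies within a HOX gene in human and mouse, averaged 334 ± 129, 791 ± 383 and 1261 ± 441 in that order. Their log2 differences between postdeviation and predeviation were 2.38 and 1.93 (limma adjusted p = 0.00825 each). Further higher calls between postdeviation and predeviation were miR-92a, miR-485-3p, miR-27a and miR-128. miR-485-3p, of the DLK1-DIO3 cluster, rested on 2 reads at predeviation, 51 at deviation and 110 at postdeviation. Its log2 difference was 4.89 between deviation and predeviation (limma adjusted p = 0.033) and 1.06 between postdeviation and deviation. miR-27a, from a hairpin cluster shared with miR-23 and miR-24, averaged 7178 ± 2807 at predeviation, 12916 ± 2417 at deviation and 13579 ± 2064 at postdeviation, with a log2 difference of 0.08 for the last step. miR-128 averaged 8814 ± 4320, 16083 ± 4737 and 19638 ± 3242 in the same order. Those that fell were miR-34c, miR-96, miR-200c and miR-146b-5p. miR-146b-5p averaged 2884 ± 611 at predeviation, 1593 ± 545 at deviation and 936 ± 454 at postdeviation, and 917 ± 443 at the preovulatory stage. miR-200c averaged 1419 ± 901, 641 ± 237 and 272 ± 170 from predeviation to postdeviation, and 309 ± 156 and 1172 ± 840 at the preovulatory and impending ovulation stages.

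**Figure D5:**
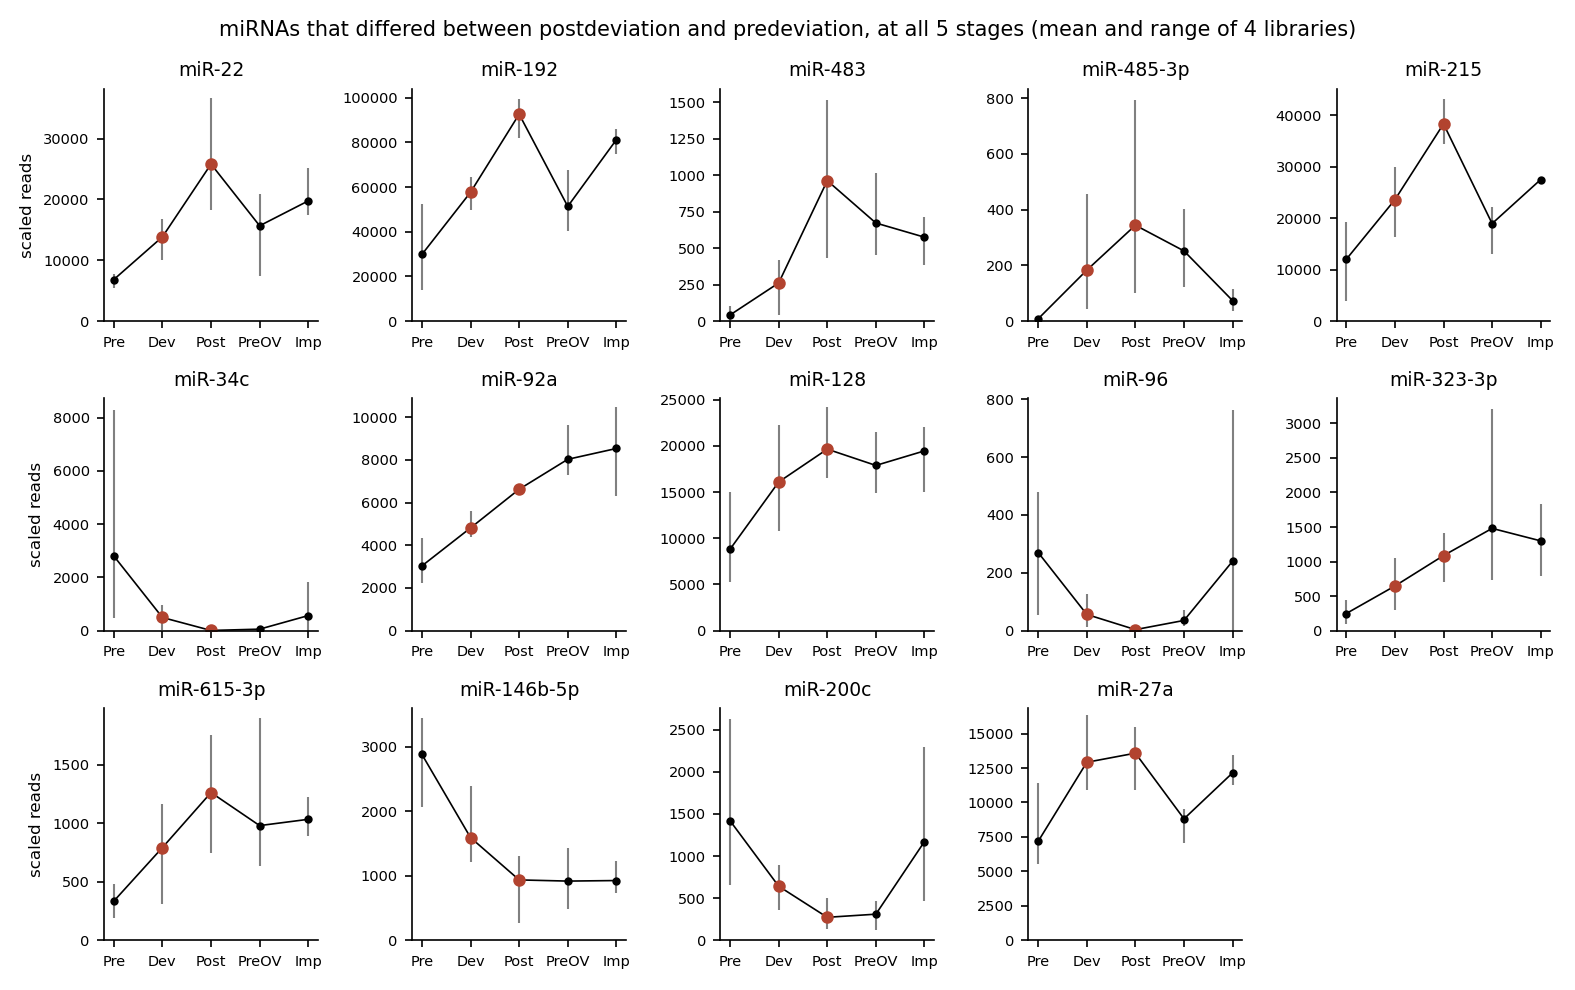
Mean scaled reads (points) and range of 4 libraries (vertical lines) at predeviation, deviation, postdeviation, preovulatory and impending ovulation stages, in order of growth, for the 14 miRNAs past the threshold between postdeviation and predeviation; deviation and postdeviation are in red. miR-22 goes through 6838, 13851 and 25804 over the first stages, and miR-34c averages 7.12 at postdeviation.

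Whether the step from deviation to postdeviation stood out from its neighbours was tested on the differences of the steps. Set against the step into deviation, 0 of 204 miRNAs (0%) passed, with 4 (1.96%) at an unadjusted p under 0.05. The smallest p was that of miR-1180, which averaged 162 ± 79.5 at predeviation, 15.8 ± 31.5 at deviation and 38.3 ± 20.6 at postdeviation (SD, n = 4 each). The difference between its steps was 9.27 ± 2.62 on the log2 scale (SE; limma adjusted p = 0.399). Without deviation library 3, the only deviation library in which it was above 0, miR-1180 passed (limma adjusted p = 0.0194). The deviation libraries left were then all at 0, so that stage kept no spread. The step difference of 12.3 there depends on the added constant, so nothing is read from this call. miR-1180 had 4 recovered reads at deviation and 10 at postdeviation. miR-204b was next, at 143 ± 60.1, 53.7 ± 39.9 and 400 ± 254 from predeviation to postdeviation, with a difference of 4.26 (limma adjusted p = 0.403). miR-15a, miR-6529 and miR-485-3p followed, each with a limma adjusted p of 0.972. Set against the step out of postdeviation, again 0 of 204 passed, with 15 (7.35%) at an unadjusted p under 0.05. miR-361-5p, miR-34c, miR-22, miR-96 and miR-192 had the smallest p, each with a limma adjusted p of 0.291. At the preovulatory stage miR-22 averaged 15669 ± 6082 and miR-192 averaged 51373 ± 11485, below their postdeviation means of 25804 and 92666, while miR-34c averaged 57.1 ± 35.3 and miR-96 averaged 35.4 ± 26.2, above theirs of 7.12 and 3.60 (SD, n = 4 each).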

How the data were processed

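Small RNA was sequenced from vesicles pelleted from follicular fluid by ultracentrifugation, with libraries made by the TruSeq Small RNA kit, per the labels' protocols. EquCab3.0 is the genome build in the submitters' processing notes, which also name DESeq2, Bowtie2 2.2.2 and bcl2fastq without a role for any. Not given in the sources used here are the miRNA annotation, the counting settings, the handling of reads that match several related miRNAs and the scaling factor of a library. Neither a genome nor mature sequences were used, so miRNAs go by the names in the table, without the prefix eca-.

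The deposited values are a scaled read signal, named CPM by the authors, whose columns sum to between 774632 and 1778185. All values (100%, tolerance 1e-06) were whole multiples of the smallest value above 0 in their library. Whole reads were recovered by dividing by it, for the count tests and read ratios. For postdeviation library 2 this has no separate check. CPM had been planned as the unit, and the planned test on a log2 scale was kept. Reads carry no molecular identifiers, so counting intervals (95%) cover counting error only.

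Values were tested as log2(value + 1) with limma 3.58.1 in R 4.3.3 (moderated test with an intensity trend), all 20 libraries in 1 fit with a mean per stage, two-sided, with Benjamini-Hochberg adjustment over the 204 miRNAs and a threshold of 0.05. Fold changes on this scale depend on the constant where miRNAs are scarce. Library measures were compared by an exact permutation test over the 70 arrangements (SciPy 1.17.1). Alternatives were other pseudocounts, filters and scalings, the 8 libraries alone, no trend, a replicate block, library (array) weights, edgeR 4.0.16, DESeq2 1.42.0 and leaving out each library. The script was tested on simulated data. The table held 0 columns of other samples.

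The text names the 20 smallest p, the 10 most abundant miRNAs, those whose stages do not overlap, some of the most abundant members of each list (4 at most), the calls against predeviation and the smallest p of the step differences; list members that missed the comparison were added after their values were seen. The members and lists were chosen with earlier results of these data known. The labels name no sequencing batch, so none was modelled.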

Additional observations from a re-analysis of the deposited data

Results flagged for a closer look

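Within a stage, 14 of 148 groups of 4 libraries tested held a library far from the other 3. For independent groups of normally distributed values chance flags about 1 in 20. Scaled reads of the same libraries need not be such, so no excess is read from the count. In 3 of the 14 the other libraries were all at 0, a pattern that is always flagged and to which that rate does not apply. At postdeviation these were library 1 for miR-96 (14.4 scaled reads, others 0), library 4 for miR-15a (17.9, others 0) and for miR-200b (2133, others 725 to 825), library 3 for miR-148a (292428, others 167125 to 185728) and, on the low side, for let-7c (10903, others 12150 to 12367), and library 2 for recovered reads (89957, others 55118 to 58485).

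At deviation, library 2 was far above the others for miR-100 (52283, others 4746 to 6306), miR-25 (9602, others 4479 to 5101), miR-224 (183, others 26.3 to 35.6) and miR-9a (942, others 0 to 142). Library 3 was far above for miR-1180 (63.1, others 0) and miR-155 (363, others 169 to 201), and far below for miR-361-5p (15.8, others 52.6 to 59.3). Library 4 had the most recovered reads (94917, others 71805 to 75035).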

How the results depend on the processing

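The count of calls between postdeviation and deviation was 0 in the fit reported and in all alternatives but array weights (2), DESeq2 (3) and leaving out libraries (0 to 1, with miR-204b called without postdeviation library 2). For the step into postdeviation set against the step into deviation, leaving out libraries gave 0 to 1. The call was miR-1180 without deviation library 3, where the other deviation libraries were at 0. For the step out of postdeviation the count was 0 in each alternative. Stage separation, whose alternatives were chosen after seeing the data, gave 7 miRNAs with equal totals, 8 with median of ratios and 10 to 18 when leaving out a library, where fewer libraries separate more easily. Calls between postdeviation and predeviation numbered 12 to 21 over the same alternatives.

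Of 69 miRNAs followed over 21 to 23 alternatives each (14 of them had fewer than 23, since the stricter filters left them out), 51 changed sign in none of those run. Those that did are given by their log2 difference in the alternative. With quantile normalization they were 0.0714 for miR-99a and 0.0041 for miR-24. With median of ratios they were 0.0861 for miR-24, 0.0053 for miR-30d and 0.0239 for miR-29a. With equal totals they were 0.18 for miR-24, 0.0906 for miR-378, 0.10 for miR-30d, 0.12 for miR-29a and 0.0794 for miR-181a. With array weights they were -0.0411 for miR-27a, 0.0167 for miR-378 and -0.0006 for miR-107a. With edgeR they were 0.0749 for miR-141 and 0.74 for miR-450b-5p, and with DESeq2 0.0456 for miR-24, 0.0711 for miR-141, 0.86 for miR-450b-5p and 0.016 for miR-155. The cause was not tested.

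Leaving out a library of either stage, the log2 difference ran from -0.21 to 0.0826 for miR-24, -0.16 to 0.45 for miR-183, -1.42 to 0.12 for miR-141, -0.0807 to 0.47 for miR-543, -1.62 to 0.96 for miR-450b-5p, -0.26 to 0.0148 for miR-378; from -1.12 to 0.072 for miR-224, -0.89 to 0.27 for miR-100, -0.41 to 0.19 for miR-30d, -0.29 to 0.13 for miR-29a, -0.17 to 0.80 for miR-107a, -0.56 to 0.10 for miR-451; and from -0.69 to 0.13 for miR-155, -0.35 to 1.13 for miR-1, -0.43 to 0.52 for miR-205.

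Replicate numbers showed no pairing of the stages. Differences from the stage means in same-numbered libraries correlated at -0.18, -0.10, -0.14 and 0.05. Of the postdeviation libraries, 0 were closest to the deviation library of their own number. With 4 libraries per stage and no label of the mare, these values cannot exclude a pairing. With the replicate block 0 miRNAs passed, with 11 at an unadjusted p under 0.05, and the block changed no call. Sums per seed were not run, because no mature sequences were used here. By abundance, 22 of the 23 intervals that lay within a 2-fold difference either way belonged to the 68 most abundant miRNAs.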

Other observations

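Both arms of 14 hairpins were in the comparison, and arms of the same hairpin had the same sign in 7 of them. For miR-423 the log2 difference, postdeviation minus deviation, was 0.24 for the 5p arm and -0.19 for the 3p arm, and the arms averaged 45373 and 5421 scaled reads at postdeviation and 38494 and 6079 at deviation. For miR-361 the 5p arm stood at -3.29 and the 3p arm at -0.41. For miR-199a the 5p arm averaged 666 at postdeviation and 457 at deviation, while the 3p arm averaged 1301 at postdeviation and 1848 at deviation. The hairpins were taken after their values were seen, and no test was made of the difference between arms.

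Below the detection rule lay 98 miRNAs that were above 0 in 1 to 3 of the 8 libraries, 25 of them in exactly 3. A further 23 were at 0 in all 8 libraries and above 0 at another stage. No miRNA in the comparison was above 0 in all 4 libraries of either stage while at 0 in the 4 of the other. Within-stage SDs of log2 values had a median of 1.0 at postdeviation and 0.83 at deviation, and were larger at postdeviation for 122 miRNAs and larger at deviation for 82.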
